A study of Mus musculus with 24 samples.

Results

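Mixed reflux, the backflow of both stomach and duodenal contents into the oesophagus, was examined in mice that lack Nrf2, a transcription factor encoded by Nfe2l2. The Nrf2-/- mixed reflux group holds 3 of the 24 arrays of the series, chosen by their labels, and its 3 arrays were counted as 1 sample for the reason given below, so that 22 samples were counted in all. It was set against the 3 arrays of Nrf2-/- mice without reflux. Further groups were Nrf2-/- mice with duodenal reflux, Nrf2-/- mice with gastric reflux, wild-type (WT) mice with mixed reflux and WT mice without reflux, with 3 arrays each. Per the labels all animals were male C57BL/6J mice of 12 weeks, and reflux had lasted 4 weeks. The Nrf2-/- allele is not described further in the sources used here, nor is the operation that made the reflux, nor whether animals were pooled. Each array compared oesophageal RNA, in Cy5, with a reference RNA pooled from 11 mouse cell lines, in Cy3. A level below is the log2 of Cy5 over Cy3, and a difference is the first group's level minus the second's, so that 1 unit is a doubling. Errors after ± are standard errors from limma, and a gene is called when its p-value, adjusted over all genes tested, is under 0.05.

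Nrf2 is held back by its partner Keap1 and, when oxidants or electrophiles release it, switches on genes for glutathione synthesis, detoxification and NADPH supply. The mouse oesophagus is lined by a keratinised squamous epithelium that rests on a matrix-rich lamina propria, with a muscle coat that is mostly striated. Acid and bile injure that lining, and injured keratinocytes are known to release cytokines and chemokines that draw neutrophils and to enter a proliferative state of repair.

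The 3 mixed reflux arrays stood apart from the rest in how alike they were. The mean square between probes of a pair's differences was 1.69 to 2.9 times that within repeat spots of a probe in this group, against 7.68 to 762 times in the 21 pairs of other groups, and the pairs correlated at 0.9961 to 0.997. Their labels call them biological replicates. They were averaged and counted as 1 sample, so its tests borrow the spread between arrays of the other groups. Nfe2l2 lay at -3.67, -3.65 and -3.69 on the mixed reflux arrays, against -2.87, -3.35 and -3.63 in Nrf2-/- mice without reflux, and at 1.45 or higher on the WT arrays that measured it. The array labelled Nrf2-/- gastric reflux replicate 2 carried sex-linked levels that disagreed with its male label.

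The tissue label of the mixed reflux arrays names oesophageal epithelium, while that of the other groups names the whole oesophagus, although other labels of all groups speak of epithelium. Marker genes of the epithelium were high in both groups. Basal keratinocyte markers averaged 3.96, 3.93 and 3.90 under mixed reflux, against 3.85, 3.75 and 3.76 without reflux, and suprabasal squamous markers 4.07, 4.08 and 4.04 against 3.97, 3.93 and 4.03. Markers of other layers were also present in the arrays labelled epithelium. Skeletal muscle markers averaged 3.88, 3.88 and 3.80 under mixed reflux, against 2.35, 3.27 and 3.21 without reflux, and endothelial markers 2.87, 2.87 and 2.86 against 2.17, 2.21 and 2.39. Smooth muscle markers were lower, at 1.26, 1.24 and 1.23 under mixed reflux against 2.77, 2.75 and 2.59 without reflux, as were fibroblast and matrix markers, at -0.21, -0.20 and -0.20 against 0.15, 0.58 and 0.68. Whether the sampled tissue differed cannot be told apart from reflux. All mixed reflux arrays lay on slide 7 and were scanned on day 3, while Nrf2-/- without reflux replicates 1 and 2 lay on slide 3 and were scanned on day 2, and replicate 3 lay on slide 5 and was scanned on day 3.

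**Figure D1:**
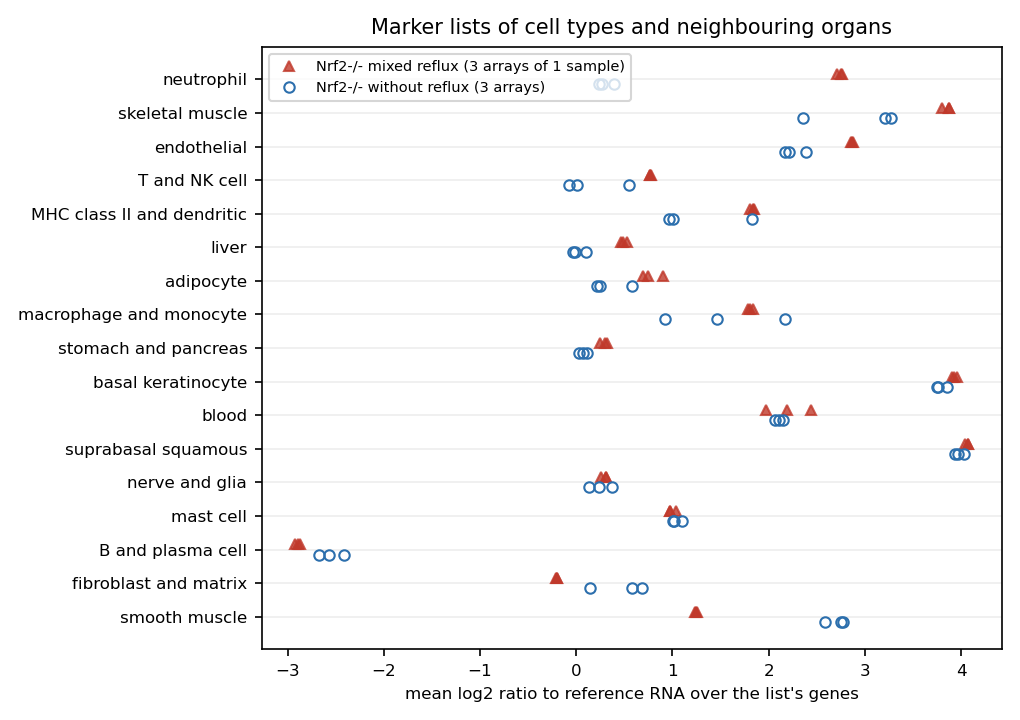
Mean level (log2 ratio to the reference RNA, horizontal axis) of 17 marker lists on each array of Nrf2-/- mixed reflux (triangles, 3 arrays of 1 sample) and Nrf2-/- without reflux (circles, 3 arrays). Neutrophil markers differ most, at 2.72 to 2.77 against 0.24 to 0.39, and smooth muscle markers are the lowest relative to the mice without reflux.

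Mixed reflux in Nrf2-/- mice went with 978 called genes of 20555 tested (4.76%), 706 of them higher (3.43%) and 272 lower (1.32%). The largest rises were, in order, in S100a8, Spink12, Uox, Slc26a4, Cxcl3, Aldh1a3, Hp, Il1b and Nppb, followed by Mmp3, Cxcl5, Mmp10, Il19, Plch1 and Retnlg. They include products of neutrophils, chemokines, cytokines and metalloproteinases, an anion exchanger and several genes outside these groups. The largest falls included genes of the extracellular matrix and of smooth muscle, and Adh7, an alcohol dehydrogenase that oxidises retinol. Without Nrf2-/- without reflux replicate 1 the count was 598, and without replicate 2 it was 592. Within scan day 3, where replicate 3 is the sole array without reflux, 61 genes passed, and with scan day as a block 249 passed.

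**Figure D2:**
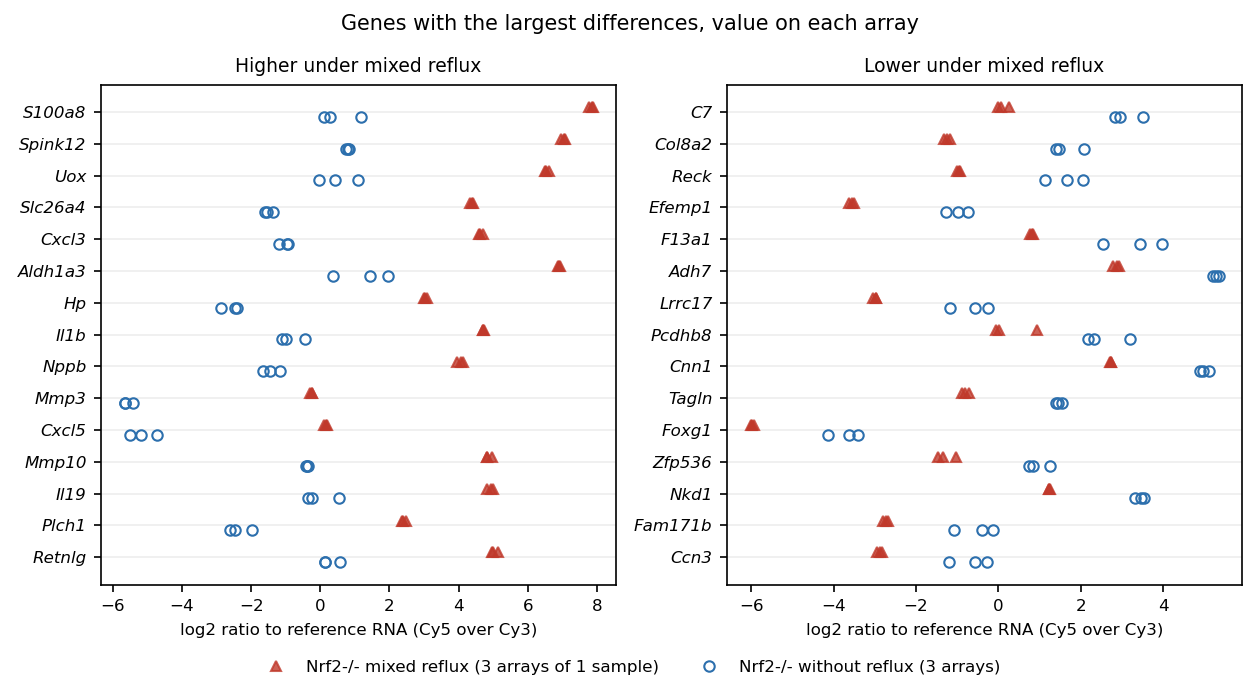
Level (log2 ratio to the reference RNA, horizontal axis) on each array of the 15 genes with the largest called rises (left) and the 15 with the largest called falls (right) under mixed reflux in Nrf2-/- mice. Triangles are the 3 arrays of the mixed reflux sample and circles the 3 arrays without reflux. S100a8 lies at 7.78 to 7.88 against 0.12 to 1.18.

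S100a8, a subunit of the calcium-binding alarmin calprotectin of neutrophils and inflamed squamous epithelium, had the largest change of all genes tested. Its level was 7.88, 7.85 and 7.78 on the mixed reflux arrays, against 0.29, 0.12 and 1.18 on the arrays without reflux (probe at chr3:90473778-90473837, mm9). The groups lay far apart, by 7.31 ± 1.12 (adjusted p = 0.00108). Its partner S100a9 had 7.70, 7.69 and 7.73 under mixed reflux, against 6.21, 5.91 and 6.03 without reflux, a difference of 1.66 ± 0.48 that did not pass (adjusted p = 0.0628).

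Neutrophil genes were higher as a list: of 17 tested, 10 rose and 0 fell, with a median difference of 2.13, against 0.04 over all genes tested. Retnlg, a resistin-like peptide of neutrophils, had 4.97 to 5.15 on the 3 arrays under mixed reflux, against 0.13, 0.58 and 0.15 without reflux, where no array had it well above background. That made it at least 21.7-fold higher (adjusted p = 0.000855). The bound sets the bright group's Cy5 level against the lowest level that counts as well above background, and it is open to dye bias. Mmp8, the neutrophil collagenase, was at least 5.41-fold higher, and Csf3r, the receptor for the granulocyte growth factor, at least 7.51-fold higher. Ltf, the iron-binding lactoferrin of neutrophil granules, rose by 4.35 ± 1.03 and the formyl peptide receptor gene Fpr1 at least 3.02-fold. Mpo, the myeloperoxidase gene, had 0.89, 0.82 and 0.74 under mixed reflux, against -0.28, -0.42 and -0.03 without reflux (1.06 ± 0.38, adjusted p = 0.125). The neutrophil list's median was 2.04 within scan day 3, where no member passed. Of the 17 genes, 1 entered the tests through its signal under mixed reflux in Nrf2-/- mice alone, which favours a rise. In whole tissue, more cells of a type and more RNA per cell cannot be told apart.

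Chemokines that bind the neutrophil receptor Cxcr2 rose together. Cxcl3 had 4.59, 4.72 and 4.62 under mixed reflux, while on the arrays without reflux it was not well above background and read -0.94, -1.19 and -0.96 (probe at chr5:91216694-91216753, mm9). It was at least 22.2-fold higher (adjusted p = 3.23e-05), and it passed in all 21 alternative settings tried. Cxcl1 had -1.23, -1.16 and -1.19 under mixed reflux, against -5.36, -5.68 and -5.26 without reflux, a rise of 4.24 ± 0.54 (adjusted p = 0.00035). A negative level means less signal than in the reference RNA, not absence. Cxcl5 had 0.11, 0.15 and 0.19, against -5.18, -5.52 and -4.71 (5.29 ± 1.23, adjusted p = 0.0184), and Cxcl2 was at least 3.92-fold higher. The platelet chemokine Ppbp was at least 12.1-fold higher.

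Csf3, the granulocyte colony-stimulating factor that drives neutrophil output, had 4.27, 4.30 and 4.18 under mixed reflux and was not well above background without reflux, at 0.09, -0.04 and 0.28. It rose (adjusted p = 0.00052), and no size is given against a level that was not measured. Ccl20, the ligand of Ccr6 on dendritic cells and Th17 cells, had 2.05, 2.38 and 2.26, against 0.19, -0.31 and -0.11 (2.31 ± 0.32, adjusted p = 0.000605). Ccl24, an eosinophil attractant, went the other way: it had -4.71, -4.83 and -4.90 under mixed reflux, against -3.39, -2.70 and -2.26 without reflux, and fell by 2.02 ± 0.46 (adjusted p = 0.0158). Of 26 chemokine and colony-stimulating factor genes tested, 7 rose and 1 fell, with a median difference of 0.67, and within scan day 3 the median was 0.45, with 1 higher and 1 lower.

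Because several of these chemokines are known targets of NF-kB, the stretches before their transcription starts were searched on both strands for a kB motif, read as GGG, any 3 bases and TTCC. Of 9 chemokine and NF-kB genes taken by the naming rule, 7 had an entry in the RefSeq promoter table (GRCm38.p6). The motif stood within 250 bases before the start of 3 of the 7, Cxcl1, Cxcl3 and Ccl20, and of 4.65% of all 32851 promoters in the table. The last 150 bases before each start are shown on the plus strand, with the bases covered by the motif in capitals, since these are the genes among the 7 that hold the motif.

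Cxcl3: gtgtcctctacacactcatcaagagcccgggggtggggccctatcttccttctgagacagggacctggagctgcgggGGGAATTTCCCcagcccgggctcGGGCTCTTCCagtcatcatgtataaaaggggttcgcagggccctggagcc

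Cxcl1: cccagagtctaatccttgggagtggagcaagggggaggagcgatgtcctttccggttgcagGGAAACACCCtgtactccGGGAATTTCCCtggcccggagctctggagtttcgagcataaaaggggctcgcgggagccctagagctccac

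Ccl20: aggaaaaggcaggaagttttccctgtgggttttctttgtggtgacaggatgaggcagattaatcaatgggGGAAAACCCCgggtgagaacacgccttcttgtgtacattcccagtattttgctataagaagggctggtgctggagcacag

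The Cxcl3 stretch is chr5:90785951-90786100, the Cxcl1 stretch chr5:90891095-90891244 and the Ccl20 stretch chr1:83116616-83116765, all in GRCm38 on the plus strand. Cxcl3 held matches that begin 73, 72 and 50 bases before the start, Cxcl1 held matches at 89, 71 and 70 bases, and Ccl20 held a match at 80 bases. The matches at 73 and 72 bases in Cxcl3, and at 71 and 70 bases in Cxcl1, overlap on opposite strands. Ier3, Ptgs2, Birc3 and Sele had no match to these letters in their windows. A match is a stretch of letters and no measure of binding. The genes searched came from chemokine and NF-kB lists, so their share with the motif beside that of all promoters is no test of enrichment. Csf3 and Cxcl5 were the genes without an entry.

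Among NF-kB feedback and target genes, 5 of 24 tested rose and 0 fell, with a median difference of 0.80. Birc3, an inhibitor of cell death that NF-kB induces, had 0.98, 0.96 and 0.94 under mixed reflux, against -0.86, -1.02 and -0.51 without reflux (1.76 ± 0.28, adjusted p = 0.0013). Ptgs2, the inducible cyclooxygenase, rose (adjusted p = 0.00554) and was not well above background without reflux, and the endothelial adhesion gene Sele was at least 4.77-fold higher. Tnfaip3, which encodes the feedback inhibitor A20, rose by 1.44 ± 0.36 and Ier3 by 1.22 ± 0.27. Nfkbia, the inhibitor that NF-kB induces first, had 0.88, 0.87 and 0.82, against 0.70, 0.65 and 0.48, and did not pass (0.25 ± 0.31, adjusted p = 0.721). Within scan day 3 the list's median was 0.65 and 0 members passed.

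Interleukin genes rose in part. Il24, a cytokine of the interleukin 20 group that acts on keratinocytes, had the smallest p-value of the lists. It had 3.45, 3.39 and 3.49 under mixed reflux, against 0.07, 0.23 and 0.72 without reflux, a rise of 3.1 ± 0.25 (adjusted p = 1.46e-05; probe at chr1:132778780-132778839, mm9). The groups did not overlap, and 8260 of 20555 genes tested also lay above the range without reflux. Within scan day 3 Il24 differed by 2.72. Il19, of the same group, had 4.82, 4.93 and 4.99, against -0.36, -0.24 and 0.53 (4.94 ± 1.07, adjusted p = 0.0115). Their receptor chain Il20ra rose by 2.67 ± 0.48, while the shared chain Il20rb differed by -0.07 (adjusted p = 0.951). Another probe of Il20rb differed by -2.42, so that its probes disagree.

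Il11, a cytokine of the interleukin 6 group, had 2.43, 2.47 and 2.41 under mixed reflux, against -1.13, -1.26 and -0.98 without reflux (3.56 ± 0.45, adjusted p = 0.000309). Il6 itself was not well above background without reflux and was at least 9.86-fold higher (adjusted p = 0.00394). Osm, oncostatin M of the same group, rose by 1.20 ± 0.17. Il23a, a subunit of the cytokine that sustains Th17 cells, was at least 2.89-fold higher, and Il17a, their product, at least 2.85-fold higher. In all 8 of 23 genes of this list rose and 0 fell, with a median difference of 0.56, and within scan day 3 the median was 0.34, with 1 called.

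In the interleukin 1 family 2 of 17 rose and 0 fell, with a median difference of 0.14. Il1b, the secreted inflammatory cytokine, had 4.72, 4.73 and 4.69 under mixed reflux, against -0.44, -0.99 and -1.12 without reflux (5.56 ± 1.14, adjusted p = 0.00789). Il1rl1, the receptor for interleukin 33, rose by 1.39 ± 0.26. Il1a, the form stored in keratinocytes, was high in both groups, at 3.91, 3.97 and 4.15 against 3.67, 3.96 and 3.96 (0.14 ± 1.08, adjusted p = 0.962).

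Genes of wounded epithelium rose as well, 9 of 26 tested with 0 lower and a median difference of 0.97. Mmp13, a collagenase of migrating keratinocytes and their stroma, had 1.86, 1.98 and 2.01 under mixed reflux, against -2.80, -3.05 and -2.15 without reflux (4.61 ± 0.51, adjusted p = 0.000149; probe at chr9:7282762-7282821, mm9). Mmp10 had 4.84, 4.84 and 4.97, against -0.36, -0.40 and -0.39 (5.27 ± 0.81, adjusted p = 0.00106). Both genes showed a wide gap between the groups. Mmp3 had -0.30, -0.23 and -0.24, against -5.66, -5.66 and -5.41 (5.32 ± 1.06, adjusted p = 0.00693). The keratin gene Krt16, switched on in repairing and hyperproliferative epithelium, had 6.51, 6.61 and 6.54, against 2.12, 2.46 and 3.72 (3.79 ± 0.67, adjusted p = 0.00302). Its usual partner Krt6a had 4.01, 3.95 and 3.91, against 3.43, 3.17 and 3.55, and did not pass (0.58 ± 0.34, adjusted p = 0.389), nor did Krt6b (1.56 ± 0.68, adjusted p = 0.216).

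The plasminogen activator Plau and its receptor Plaur, which act in cell migration, rose by 1.77 ± 0.45 and 1.27 ± 0.31. The list's median was 0.88 within scan day 3, with 2 called. In the list of matrix metalloproteinases and their inhibitors 6 of 18 rose and 0 fell, with a median difference of 0.36, and these were Mmp3, Mmp8, Mmp9, Mmp10, Mmp13 and the inhibitor Timp1. Another probe of Timp1 differed by 0.42, where the probe used differed by 1.56. Mmp2, a gelatinase of fibroblasts, had -0.33, -0.43 and -0.37 under mixed reflux, against 0.41, 0.54 and 0.36 without reflux, and did not pass (-0.81 ± 0.44, adjusted p = 0.341). Reck, a membrane protein that restrains several metalloproteinases, fell to -0.94, -0.99 and -0.95 under mixed reflux, against 1.13, 1.66 and 2.05 without reflux (-2.58 ± 0.61, adjusted p = 0.0205), a fall that passed in 15 of 21 alternative settings.

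Of 13 EGF family genes, ligands, receptors and regulators together, 4 rose and 0 fell, with a median difference of 0.29, and those that rose encode ligands. Epgn, the ligand epigen, had 5.87, 5.79 and 5.61 under mixed reflux, against 0.94, 1.07 and 1.20 without reflux (4.69 ± 0.76, adjusted p = 0.00154). Areg, amphiregulin, had 3.59, 3.60 and 3.62, against 0.36, 0.47 and 0.02 (3.32 ± 0.54, adjusted p = 0.00162). Hbegf rose by 1.69 ± 0.40. Nrg1, a ligand of the receptors Erbb3 and Erbb4, rose by 2.74 ± 0.38 (adjusted p = 0.000617), although another of its probes differed by -0.41. Tgfa and Ereg, further ligands, did not pass, with differences of 0.29 and 0.16 (adjusted p of 0.894 and 0.941).

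Immediate early genes, which answer growth factors and stress within minutes, rose in 5 of 23 and fell in 1, with a median difference of 0.67. Arc, best known from neurons, had 3.25, 3.20 and 3.1 under mixed reflux, against -1.46, -1.31 and -1.18 without reflux (4.5 ± 0.70, adjusted p = 0.00114). Fos had 0.32, 0.36 and 0.39, against -3.54, -3.72 and -2.94 (3.76 ± 0.79, adjusted p = 0.00901), and Egr2 rose by 2.92 ± 0.60. The phosphatase genes Dusp1 and Dusp2, which switch off MAP kinases, rose too, by 1.29 ± 0.34 and 1.58 ± 0.39, while Klf6 fell by 0.86 ± 0.23. Within scan day 3 the list's median was 0.67 and 0 members passed, and Fos and Egr2 did not pass with scan day as a block.

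Genes of DNA replication rose in larger number than those of any other list: 23 of 34 tested rose and 0 fell, with a median difference of 1.21 and a range of 0.33 to 2.29. Cdc45, which with the MCM and GINS complexes forms the replicative helicase, had -1.35, -1.38 and -1.37 under mixed reflux, against -2.98, -2.85 and -2.97 without reflux (1.56 ± 0.19, adjusted p = 0.000303). The helicase subunit Mcm6 had -1.43, -1.50 and -1.45, against -3.15, -3.02 and -2.92 (1.56 ± 0.21, adjusted p = 0.000605). Each of the 6 subunits of the MCM ring rose, Mcm4 most, by 2.29 ± 0.31. Mcm10, which activates the helicase, had -0.95, -0.92 and -0.92, against -2.96, -2.96 and -3.00 (2.05 ± 0.29, adjusted p = 0.000636), and the GINS subunit Gins1 rose by 1.97 ± 0.27. The groups did not overlap in any of these genes. Of the 34 genes of the list 33 lay above the range without reflux, against 8260 of 20555 genes tested.

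The origin licensing factor Cdt1 rose by 1.28 ± 0.21 and Cdc6 by 0.93 ± 0.26. Both subunits of ribonucleotide reductase, which makes the building blocks of DNA, rose, Rrm1 by 1.53 ± 0.22 and Rrm2 by 1.83 ± 0.36, and so did Ccne1, the cyclin of the entry into S phase, by 1.57 ± 0.24. Pcna, the sliding clamp of the polymerases, did not pass (1.03 ± 0.46, adjusted p = 0.233). The list's median was 1.15 within scan day 3, where 3 members passed. With the scanner software's processed signals Cdc45 differed by 1.90 and did not pass (adjusted p = 0.284).

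Mitotic genes moved less: 5 of 30 rose and 0 fell, with a median difference of 0.67. The spindle factor Tpx2 had -1.25, -1.22 and -1.34 under mixed reflux, against -2.62, -2.45 and -2.20 without reflux (1.15 ± 0.23, adjusted p = 0.00789), and the checkpoint kinase Bub1 rose by 1.29 ± 0.29. Cdk1, the kinase that drives mitosis, rose by 0.73 ± 0.16 and the chromosomal passenger gene Birc5 by 1.16 ± 0.25. Other probes of Bub1 and Cdk1 differed by 0.33 and 0.31. The proliferation marker Mki67 had -1.21, -1.22 and -1.21, against -1.74, -1.76 and -1.74, and did not pass (0.54 ± 0.44, adjusted p = 0.55). After median centring in place of loess 0 of the mitotic genes passed.

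**Figure D3:**
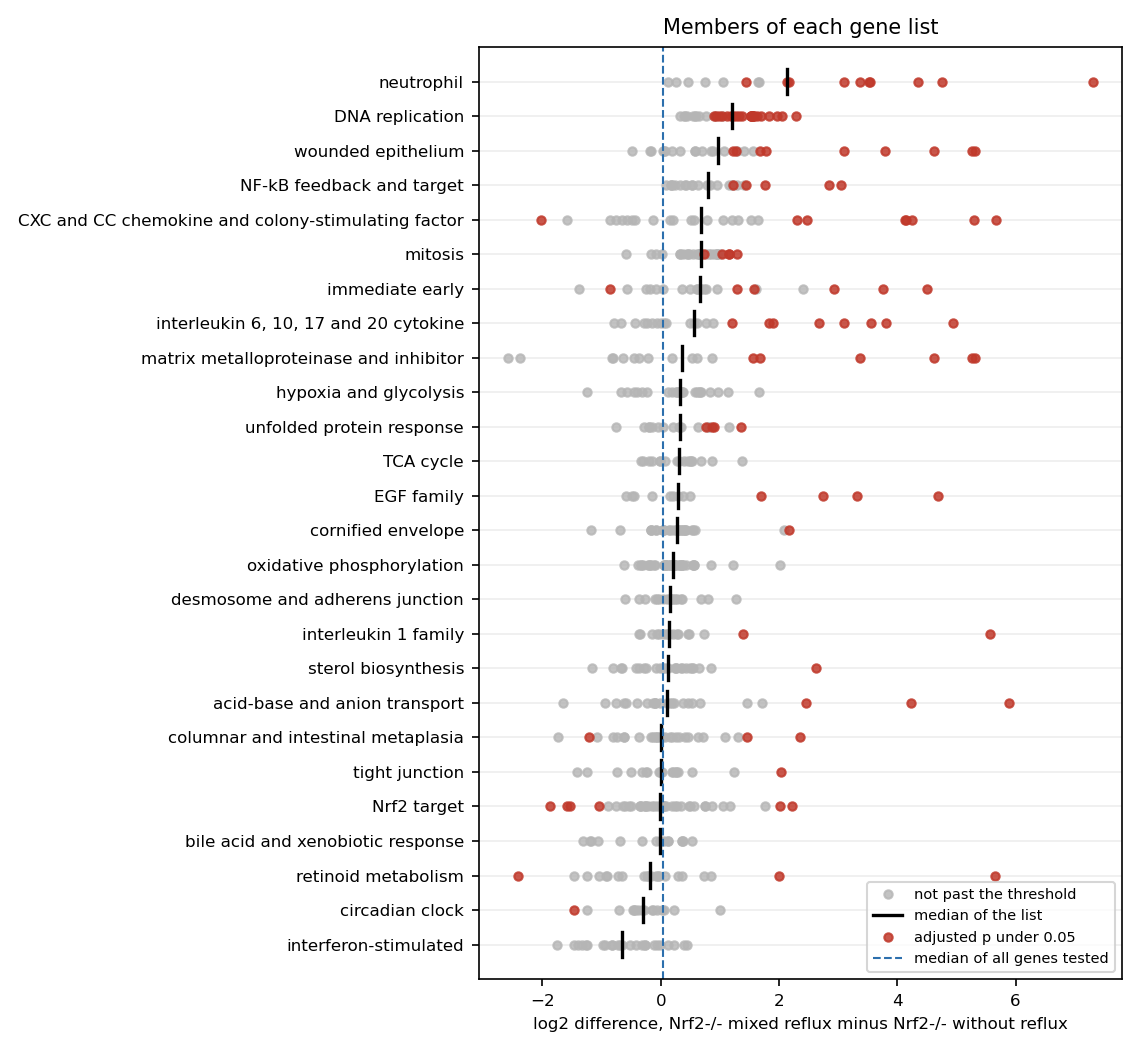
Log2 difference between Nrf2-/- mixed reflux and Nrf2-/- without reflux (horizontal axis) for each gene of 25 lists and of the neutrophil markers. Red points have an adjusted p under 0.05, grey points do not, black bars are list medians and the dashed line is the median of all genes tested, 0.04. DNA replication genes, with a median of 1.21, hold 23 red points of 34.

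Of 41 Nrf2 target genes 2 were higher and 4 lower in these mice that lack Nrf2, with a median difference of -0.01. Over all genes tested 3.43% were higher and 1.32% lower. Gsr, the glutathione reductase that regenerates glutathione with NADPH, had 0.18, 0.20 and 0.23 under mixed reflux, against -2.12, -1.95 and -1.97 without reflux (2.22 ± 0.22, adjusted p = 5.13e-05; probe at chr8:34808399-34808458, mm9). The groups did not overlap, as in the 8260 of 20555 genes tested that lay above the range without reflux. Both other probes of Gsr differed by 2.43 and 2.42. Akr1b8, an aldo-keto reductase, had -0.85, -0.88 and -0.87, against -2.85, -2.85 and -2.99 (2.02 ± 0.31, adjusted p = 0.00149).

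The falls were in glutathione transferases, which couple glutathione to electrophiles. Gstm2 had 0.29, 0.17 and 0.24 under mixed reflux, against 2.11, 2.03 and 2.17 without reflux (-1.87 ± 0.28, adjusted p = 0.0014). Gstm1 had -0.37, -0.35 and -0.36, against 1.18, 1.26 and 1.23 (-1.58 ± 0.22, adjusted p = 0.00081), and Gsta3 and Gstm3 fell by 1.53 ± 0.32 and 1.04 ± 0.27. The Gstm genes resemble each other in sequence, and their probes may share signal. Nqo1, the quinone reductase most used as a readout of Nrf2, had -0.78, -0.85 and -0.83, against -0.83, -0.88 and -0.72 (-0.01 ± 0.30, adjusted p = 0.989). Gclc and Gclm, the subunits of the enzyme that limits glutathione synthesis, differed by -0.51 ± 0.51 and 0.49 ± 0.58, and neither passed. After median centring in place of loess 1 target was lower and 2 were higher.

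Retinoid genes split, with 2 of 22 higher, 1 lower and a median difference of -0.19. Aldh1a3, which makes retinoic acid from retinaldehyde, had 6.91, 6.87 and 6.93 under mixed reflux, against 0.36, 1.43 and 1.97 without reflux (5.65 ± 1.09, adjusted p = 0.00541). Another probe of the gene differed by 2.88. Adh7 had 2.79, 2.87 and 2.93, against 5.29, 5.35 and 5.21 (-2.42 ± 0.44, adjusted p = 0.00394; probe at chr3:137894495-137894554, mm9). With scan day as a block neither Aldh1a3 nor Adh7 passed.

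Among genes of acid-base and anion transport 3 of 25 rose and 0 fell, with a median difference of 0.11. Slc26a4, the chloride and bicarbonate exchanger pendrin, had 4.40, 4.42 and 4.34 under mixed reflux and was not well above background without reflux, at -1.60, -1.55 and -1.37. It was at least 57.3-fold higher (adjusted p = 0.00263). Car2, a carbonic anhydrase, had 3.40, 3.43 and 3.44, against -0.83, -0.90 and -0.68 (4.23 ± 0.79, adjusted p = 0.0042), and the water channel gene Aqp9 rose by 2.45 ± 0.56. Further large rises were in Spink12, a protease inhibitor of the Kazal family (6.23 ± 1.28), in Uox, the urate oxidase gene (6.05 ± 1.20), in Hp, which encodes the haemoglobin scavenger haptoglobin (5.61 ± 1.22), in the natriuretic peptide gene Nppb (5.48 ± 0.81) and in the phospholipase gene Plch1 (at least 15.6-fold).

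Few genes of squamous and columnar identity were called, and over all genes tested 3.43% were called higher and 1.32% lower. Whether these lists differ from those shares was not tested. Of 30 cornified envelope genes 1 rose, Sprr2g (2.17 ± 0.51, adjusted p = 0.0193). Of 28 genes of columnar and intestinal metaplasia Spdef, a factor of secretory cells, rose by 2.35 ± 0.52 and the trefoil peptide gene Tff1 by 1.47 ± 0.41, while the simple-epithelium keratin Krt8 fell by 1.21 ± 0.30. Cdx1 and Cdx2, the intestinal master factors, were not among the genes tested. The tight junction gene Cldn7 rose by 2.03 ± 0.40, and 0 of 19 desmosome and adherens junction genes were called.

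Genes of connective tissue and smooth muscle were among the falls, although 0 of 19 fibroblast and matrix markers were called (median difference -0.48). C7, a complement component of stromal cells, was not well above background under mixed reflux, at -0.01, 0.07 and 0.27, against 3.51, 2.82 and 2.97 without reflux, and was at least 6.93-fold lower (adjusted p = 0.0103). Col8a2, a collagen chain, had -1.33, -1.16 and -1.24, against 1.40, 1.49 and 2.08 (-2.90 ± 0.53, adjusted p = 0.00389). Efemp1, the matrix protein fibulin 3, had -3.51, -3.56 and -3.62, against -1.27, -0.97 and -0.73 (-2.57 ± 0.33, adjusted p = 0.000605). All 3 genes lay below the range of the arrays without reflux, as the naming rule required. Of 20555 genes tested, 7108 lay below that range and 8260 above it. Ccn3, a secreted matricellular protein, fell by 2.19 ± 0.39, Lrrc17 by 2.32 ± 0.41 and the Wnt inhibitor gene Nkd1 by 2.20 ± 0.41. F13a1, a clotting factor subunit made by tissue macrophages, fell by 2.51 ± 0.68 (adjusted p = 0.0432), a call kept in 9 of 21 alternative settings.

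Of 12 smooth muscle markers 2 fell, with a median difference of -1.79 over the brightest passing probe of each gene. Other probes were divided. Those of Acta2 differed by -0.16, -1.66 and -1.63, of Mylk by -0.19 and -1.97, and of Tagln by -1.705. For Synm, Synpo2 and Myocd the probes used differed by -1.80, -1.77 and -2.22. Their other probes differed by -0.325 (Synm), -0.23 and -0.18 (Synpo2) and 0.16 (Myocd). Cnn1, calponin, had 2.75, 2.72 and 2.73 under mixed reflux, against 5.11, 4.97 and 4.90 without reflux (-2.26 ± 0.40, adjusted p = 0.00371). Tagln, transgelin, had -0.72, -0.81 and -0.88, against 1.44, 1.39 and 1.54 (-2.26 ± 0.43, adjusted p = 0.00616). Acta2, the smooth muscle actin, did not pass (-1.99 ± 0.61, adjusted p = 0.0777), and Myh11, the smooth muscle myosin, differed by 0.04 ± 0.64 (adjusted p = 0.98). Within scan day 3 the list's median was -1.51, with 0 members called. On arrays labelled whole oesophagus, the 12 markers averaged 2.23, 0.69 and 2.34 in Nrf2-/- mice with duodenal reflux. With gastric reflux they averaged 2.72, 2.12 and 3.07. The part of the tissue label in the fall was not tested.

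The genotype comparison asks whether the change under mixed reflux in Nrf2-/- mice differed from that in WT mice, and it uses the same Nrf2-/- arrays as the comparison above. No WT array without reflux was scanned on day 3. WT without reflux replicates 1 and 2, both on slide 1, had 13.0% and 11.8% outlier spots, against 0.293% to 0.659% on the other arrays, and their basal keratinocyte markers averaged 1.99 and 2.81, against 4.17 in replicate 3. Of 20552 genes tested, 193 changed more upwards in Nrf2-/- mice (0.939%) and 80 more downwards (0.389%). Of 34 DNA replication genes 14 were among the first and 0 among the second, with a median of 1.15. Of 23 interleukin 6, 10, 17 and 20 group genes 4 were higher by this measure, and of 26 chemokine and colony-stimulating factor genes 5.

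Il24 had 0.86, 1.03 and 0.42 in WT mice with mixed reflux, against 0.41, 0.36 and 0.29 in WT mice without reflux, and its genotype difference was 2.69 ± 0.31 (adjusted p = 0.000873). In the Nrf2-/- mice its level under mixed reflux was thus far above that of each of these WT arrays. Cdc45 had -3.09, -2.97 and -3.40 in WT mice with mixed reflux, against -2.67, -2.48 and -2.98 in WT mice without reflux, so that WT differed by -0.45 ± 0.14 (adjusted p = 0.255) and the genotypes by 2.01 ± 0.24 (adjusted p = 0.000873). Mmp13 had -1.40, -0.66 and -1.96 in WT mice with mixed reflux, against -1.91, -1.40 and -2.90 in WT mice without reflux, which overlap (3.88 ± 0.63, adjusted p = 0.00933). Gsr differed between the genotypes by 2.02 (adjusted p = 0.0039) and Akr1b8 by 2.21 (adjusted p = 0.0261), both higher in Nrf2-/- mice, although Akr1b8 was measured on 1 WT array without reflux.

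Genes that changed more downwards in Nrf2-/- mice included C7, the protocadherin gene Pcdhb8, whose family members are alike in sequence, and Aif1l, an actin-binding protein gene. Aif1l had -0.73, -0.74 and -0.80 in Nrf2-/- mice with mixed reflux, against 1.47, 1.41 and 1.34 in Nrf2-/- mice without reflux. In WT mice it had 1.15, 1.14 and 1.12 with mixed reflux, against 0.10 on the WT array without reflux that measured it, and the genotype difference was -3.20 ± 0.43 (adjusted p = 0.0039). Rgcc, a cell cycle regulator, likewise rested on 1 WT array without reflux (-2.24 ± 0.48, adjusted p = 0.0333).

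WT mixed reflux replicate 2 stood above the other WT mixed reflux arrays in many inflammatory genes and in markers of other tissues. Skeletal muscle markers averaged 2.41, 4.50 and 2.33 on replicates 1, 2 and 3, and fibroblast and matrix markers -0.68, 0.715 and -0.57. Basal keratinocyte markers were closer, at 3.98, 3.73 and 3.93. Whether the sampled tissue differed was not tested. S100a8 had 2.94, 7.18 and 2.84 on those 3 arrays, Aldh1a3 0.78, 4.69 and 0.40, and the neutrophil markers averaged 0.81, 1.88 and 0.76, against 2.77, 2.75 and 2.72 in Nrf2-/- mice with mixed reflux. The genotype difference of S100a8 did not pass (2.74 ± 1.38, adjusted p = 0.444), nor did that of Il1b (2.51, adjusted p = 0.509). Without slide 1 the count of 273 called genes was 48, and 14 of 16 genes named for this comparison lost the threshold. The count was 432 without WT mixed replicate 2, 88 without replicate 1 and 90 without replicate 3. It was 115 without WT without reflux replicate 2, 94, 106 and 162 without Nrf2-/- without reflux replicates 1, 2 and 3, and 31 with scan day as a block.

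**Figure D4:**
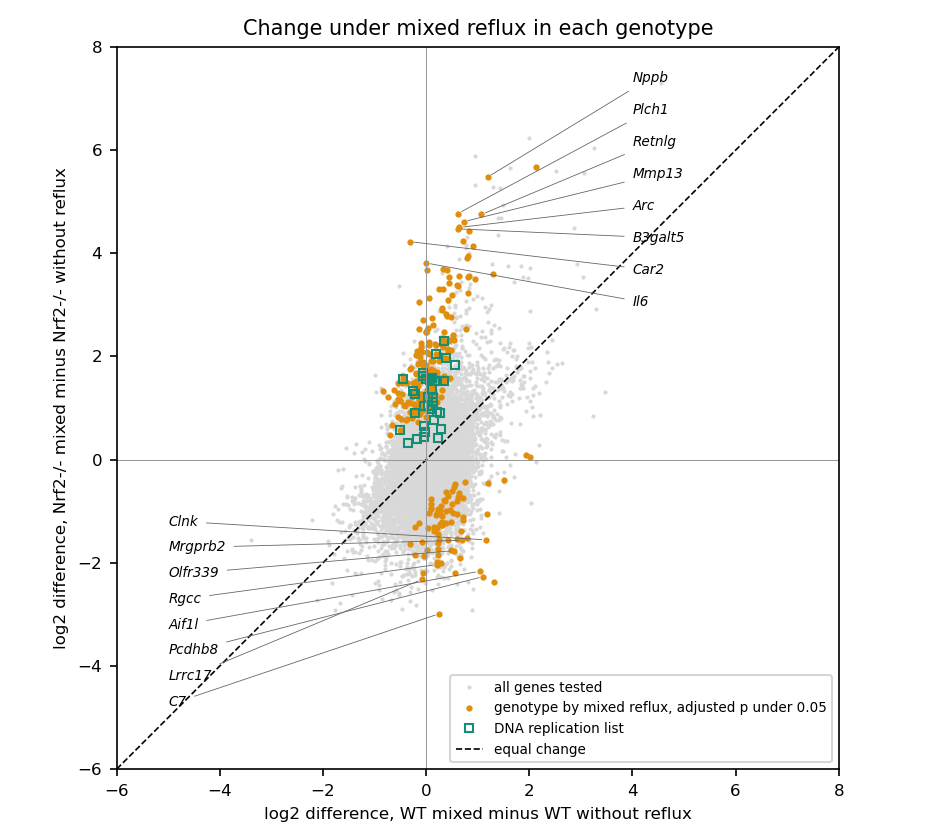
Log2 difference between mixed and no reflux in Nrf2-/- mice (vertical axis) against the same in WT mice (horizontal axis). Grey points are all genes tested, orange points the 273 genes called for the difference between genotypes and green squares the DNA replication list, and the dashed line marks equal change. The green squares sit above the line, 0.33 to 2.29 on the vertical axis.

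Between mixed and duodenal reflux in Nrf2-/- mice, 3 of 20555 genes were called, all lower under mixed reflux (0.0146%), and 2155 had an unadjusted p under 0.05. With the fit restricted to these groups limma called 0. A gene that missed the threshold is not shown to be equal. Edn2, which encodes the vasoconstrictor endothelin 2, had 0.49, 0.42 and 0.50 under mixed reflux, against 2.75, 2.72 and 2.83 under duodenal reflux (-2.30 ± 0.20, adjusted p = 4.92e-05; probe at chr4:119839682-119839741, mm9). Its level without reflux was 1.63, 1.22 and 1.51, between the other groups. Bhlha15, a factor of secretory cells, had -2.26, -2.19 and -2.38 under mixed reflux, against -0.10, -0.11 and -0.10 under duodenal reflux (-2.17 ± 0.32, adjusted p = 0.0343). The remaining called gene has no symbol in the RefSeq table. Another probe of Bhlha15 differed by 0.38 between mixed and no reflux, where the probe shown differed by -0.60. A mean over a gene's probes left 1 called gene against duodenal reflux. Without duodenal replicate 2 the count was 21, without duodenal replicate 1 it was 1, and without mixed reflux array 3 it was 7.

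Inflammatory genes differed by less than the fit could call. S100a8 had 7.88, 7.85 and 7.78 under mixed reflux, against 7.94, 8.62 and 7.89 under duodenal reflux, a difference of -0.32 ± 1.12 (adjusted p = 0.927). Cxcl3 had 3.70, 3.25 and 3.59 under duodenal reflux, below each mixed reflux array (1.13 ± 0.55, adjusted p = 0.485). Cdc45 had -2.60, -2.54 and -2.44 under duodenal reflux, also below the mixed reflux arrays, and missed the threshold (1.16 ± 0.19, adjusted p = 0.0634). The DNA replication list had a median difference of 0.49 and 0 called genes.

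Against gastric reflux, which shares the mixed reflux sample with the comparisons above, 463 genes were higher under mixed reflux (2.25%) and 213 lower (1.04%). After median centring in place of loess the split was 284 higher and 43 lower. Without gastric reflux replicate 2, the array whose sex-linked levels disagreed with its label, it was 521 higher and 407 lower. A fit restricted to these groups called 0 genes, so that all 16 genes named for this comparison lost the threshold, and 702 had an unadjusted p under 0.05. Within scan day 3 the count was 260, and 13 of the 16 lost it. Cxcl3 had 0.72, -0.88 and -0.79 under gastric reflux, and mixed reflux lay above it by 4.96 ± 0.55 (adjusted p = 0.000136). Il24 had 0.47, 0.30 and 0.31 under gastric reflux, within the range without reflux, and differed by 3.09 (adjusted p = 1.58e-05). Il19 was higher under mixed reflux and not well above background on any gastric reflux array (adjusted p = 0.0153). Aldh1a3, Spink12, S100a8, Slc26a4, Mmp10 and Mmp3 were also higher under mixed than under gastric reflux, by 4.83 to 5.88. Of 34 DNA replication genes 16 were higher and 0 lower, and of 23 genes of the interleukin 6, 10, 17 and 20 list 8 were higher and 0 lower.

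The genes lower under mixed than under gastric reflux included transcripts known from liver. Fabp1, the fatty acid binding protein of liver and gut, had 1.09, 0.99 and 0.92 under mixed reflux, against 7.28, 5.70 and 7.05 under gastric reflux (-5.68 ± 1.35, adjusted p = 0.028). The fibrinogen chain Fgg had 0.78, 0.60 and 0.57, against 5.93, 4.70 and 5.83 (-4.83 ± 1.28, adjusted p = 0.0477). F2, prothrombin, had -1.66, -1.37 and -1.61, against 3.59, 1.66 and 2.96 (-4.28 ± 0.87, adjusted p = 0.0101). The 12 liver markers averaged 0.53, 0.49 and 0.47 under mixed reflux, 3.65, 0.81 and 3.79 under duodenal reflux, 3.40, 2.85 and 3.81 under gastric reflux, and -0.04, -0.02 and 0.10 without reflux. Where the liver transcripts came from was not tested. Mboat2, an acyltransferase gene, was lower too, at -1.17, -0.99 and -0.94 under mixed reflux, against 1.94, 3.38 and 1.86 under gastric reflux (-3.42 ± 0.48, adjusted p = 0.00135).

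**Figure D5:**
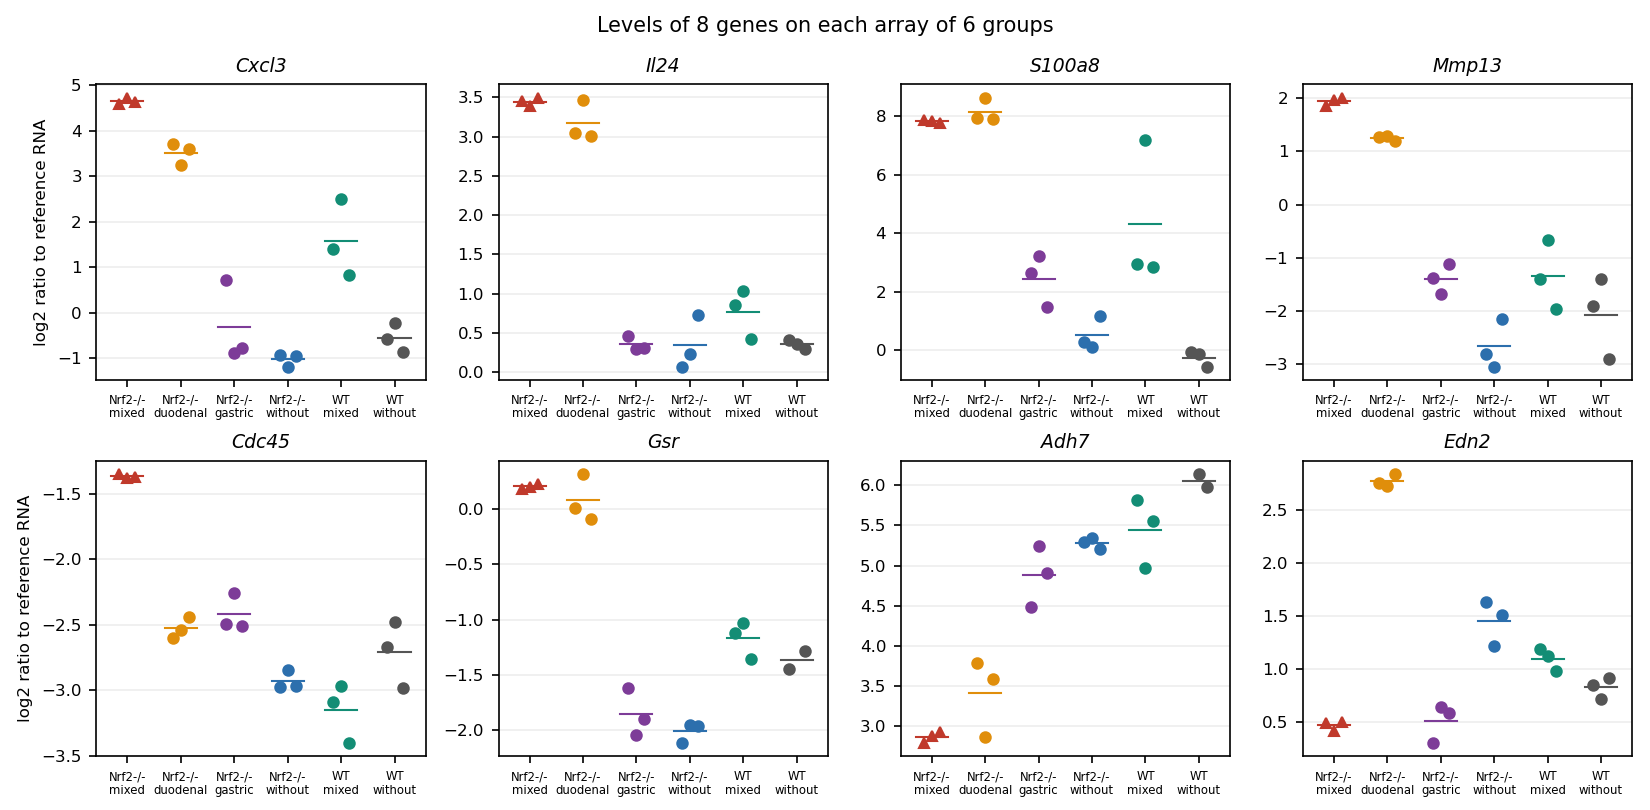
Levels (log2 ratio to the reference RNA, vertical axis) of 8 genes on each array of 6 groups. Points are arrays, bars are group means, and the triangles are the 3 arrays of the Nrf2-/- mixed reflux sample. Cxcl3, Il24, S100a8, Mmp13 and Gsr are high under mixed and duodenal reflux in Nrf2-/- mice, and Edn2 lies at 0.42 to 0.50 under mixed against 2.72 to 2.83 under duodenal reflux.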

How the data were processed

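Agilent Feature Extraction files were deposited for 24 arrays of 45018 spots. Their linear-scale intensity values for Cy5 and Cy3, with local backgrounds, were the starting point, and they also hold a log10 ratio written by the scanner software, per the file headers. The headers name software 10.5.1.1 with build mm7 for 2 arrays and 10.7.3.1 with mm9 for 22, while the submitters' processing notes name 9.1. A table of log2 values deposited by the authors, whose normalisation no source here describes, served as an alternative. It rose with the log10 ratio on each array and its column medians lay between 0 and 0.07.

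Here intensities were corrected by normexp (offset 50, outlier backgrounds set to the array's median) and loess, with limma 3.58.1 in R 4.3.3 and 1639 control spots at weight 0. Outlier spots were dropped and repeat spots averaged. Names came from RefSeq for 26918 (accession), 5082 (symbol) and 817 (synonym) of 41174 probes, and the file's own name stayed for 8357. Each gene is shown by its brightest passing probe, and 17.6% of called genes with several probes had one of opposite sign. Genes entered the tests if every array in 1 or more groups had them well above background. Of 20555 genes, 1173 did so through Nrf2-/- mixed reflux alone, which favours a rise. Lists with 1 such gene included the neutrophil, NF-kB, wounded epithelium, metalloproteinase, retinoid and acid-base lists. One mean per group was fitted to 22 samples (14 residual and 2.91 prior degrees of freedom), with Benjamini-Hochberg adjustment. The lone mixed reflux sample is assumed to vary like the other groups, and an exact permutation test of 1 sample against 3 cannot go below p = 0.25. On simulated data with 200 changed genes the comparison with no reflux recovered 16.5% at a log2 change of 1, 69.0% at 2 and 96.5% at 4. Bounds for dim genes use Cy5 levels after Aquantile scaling.

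Named genes are the 15 largest called rises and falls of the comparison with no reflux and the 8 largest of each other comparison. All of these have a RefSeq symbol. Except in the genotype comparison, the mixed reflux sample also lay outside the range of the 3 arrays it was compared with. Added in each list are the 4 smallest p-values, its 3 defining genes and members already named. Further list members, such as S100a9, Mpo, Krt6b, Il20rb, Ereg and Mmp2, were chosen after their values were seen. Members, lists and rule were chosen with earlier results of these data known. The labels were not taken to pair samples by replicate number. Deviations of same-numbered arrays correlated at 0.03, -0.03 and 0.03. The mixed reflux arrays are nearly identical, so these correlations cannot show whether the samples were paired. A few genes that the rule names are not reported here.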

Additional observations from a re-analysis of the deposited data

Results flagged for a closer look

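The change under mixed reflux differed between the genotypes, by the test of that difference, in 273 genes. Among genes named by the rule and reported here, 27 had the more positive change in Nrf2-/- mice and 11 the more negative one, as log2 differences of the Nrf2-/- change minus the WT change. The inflammatory and secreted factors were Mmp13 at 3.88, Il6 at 3.81, Retnlg at 3.68, Cxcl3 at 3.55, Cxcl1 at 3.53, Csf3 at 3.23, Ptgs2 at 3.19, Areg at 3.07, Mmp8 at 2.75, Il11 at 2.73, Il24 at 2.69, Nrg1 at 2.64, Ccl20 at 1.97 and Il23a at 1.96. Il6, Retnlg, Cxcl3, Csf3, Ptgs2, Mmp8, Il23a and, below, Plch1 were not well above background on any array without reflux of either genotype, so their values are fitted differences with no exact size.

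Genes of the cell cycle were Cdc45 at 2.01, Mcm10 at 1.85, Birc5 at 1.66, Gins1 at 1.58, Mcm6 at 1.57 and Cdk1 at 0.88. Transport, metabolic and other genes were Car2 at 4.54, Nppb at 4.29, Plch1 at 4.16, the glycosyltransferase gene B3galt5 at 3.86, Arc also at 3.86, Akr1b8 at 2.21 and Gsr at 2.02.

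Akr1b8, Birc5, Gstm2, Rgcc and Aif1l were measured on 1 WT array without reflux, and C7 and Mrgprb2 were not well above background on any mixed reflux array of Nrf2-/- mice. More negative in Nrf2-/- mice were Edn2 at -1.25, Gstm2 at -1.82, Ccn3 at -2.13, and Rgcc and Lrrc17 at -2.24 each. So were Mrgprb2 at -2.27, Olfr339 at -2.31, Clnk at -2.71, Aif1l at -3.20, C7 at -3.24 and Pcdhb8 at -3.37. Another Clnk probe differed by 0.69 between mixed and no reflux in Nrf2-/- mice, where the probe used differed by -1.56.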

How the results depend on the processing

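Counts of called genes are given against 978 for mixed reflux against no reflux, 273 for the genotype difference, 3 against duodenal and 676 against gastric reflux. Median centring gave 479, 72, 4 and 327, and it moved the median of all genes against duodenal reflux to 0.27. Local backgrounds as read gave 1365 for the genotype difference, with 46.4% higher against 70.7%, and 5 against duodenal reflux. Processed signals gave 83 and 16 there, and the deposited values 93 and 6. No filter gave 5 against duodenal reflux, and a mean over a gene's probes 1. Scan day as a block gave 249 against no reflux and 31 for the genotype difference, and within scan day 3 there were 61 against no reflux and 260 against gastric reflux. Slide as a block gave 149 for the genotype difference, and leaving out slide 1, which holds WT without reflux replicates 1 and 2 and was chosen after seeing the data, 48. Leaving out the 3 arrays of low Cy5 signal gave 2644, 694, 83 and 1152. Fits restricted to the groups compared gave 0 against duodenal and 0 against gastric reflux, where 1422 and 702 genes had an unadjusted p under 0.05.

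Counting the mixed arrays as 3 samples gave 5063, 1468, 2214 and 3723. With a replicate block, though no pairing by replicate number was shown, these were 4745, 1289, 1852 and 3473. Leaving out 1 replicate gave 592 to 1141, 88 to 432, 1 to 21 and 674 to 928. Of 2520 gene values against no reflux 212 lost the threshold, 91 gained it and 1 reversed: Pkm, a glycolytic enzyme gene that was not called, at -0.146 as a mean over its probes. Within scan day 3 the genotype difference was not run, for lack of a WT array without reflux. The mixed reflux group is 1 sample on a slide with no array without reflux, it shares its scan day with 1 array without reflux, and its tissue label cannot be told apart from reflux.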

Other observations

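Genes of the unfolded protein response, which eases the load on the endoplasmic reticulum, rose in 4 of 19 under mixed reflux in Nrf2-/- mice, with 0 lower and a median difference of 0.32. Manf, a secreted stress factor of the reticulum, rose by 1.36 ± 0.30 (limma, adjusted p = 0.0153), and Pdia6, Creld2 and Hsp90b1 were the others. Other probes of Pdia6 and Hsp90b1 differed by -1.55 and -0.51. The clock repressor gene Nr1d1 fell by 1.46 ± 0.33 (adjusted p = 0.0175), although another probe differed by 0.28. Tubb3, a neuronal tubulin, rose by 1.55 ± 0.29 (adjusted p = 0.00463). Of 19 macrophage and monocyte markers Cd14 was the 1 called (1.74 ± 0.34), with a list median of 0.32 and a lowest difference of -1.53, and of 13 MHC class II and dendritic markers Itgax was the 1 called (1.76 ± 0.49), with a median of 0.46. Another probe of Itgax differed by 0.28.

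No gene was called among 43 of oxidative phosphorylation, 17 of the TCA cycle, 25 of hypoxia and glycolysis and 25 interferon-stimulated genes. Their median differences were 0.20, 0.31, 0.32 and -0.66. Over all genes tested 4.76% were called, so lists of this size would hold few calls at that share.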
